A study of Mus musculus with 54 samples.

Results

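Interferon-stimulated genes are the genes that a cell switches on when it meets an interferon. The set described here holds 45 such genes, named by symbol, and 44 of them were found among the 13815 genes of the liver RNA-seq table; Ifi27 was not analysed here. All 5 RNA-seq groups, of 3 libraries each, were livers of mice with loxP-flanked Flcn alleles (Flcn fl/fl) that received an AAV8 virus with the TBG promoter, which is active in hepatocytes. Control mice received the virus with GFP and LiFKO mice the virus with Cre, which deletes Flcn in hepatocytes and leaves other liver cells with the gene. DKO mice received Cre and came from a separate line that lacks Tfe3 in the whole body (Flcn fl/fl; Tfe3-/Y), immune cells included. The groups were chow Control, chow LiFKO, AMLN Control, AMLN LiFKO and AMLN DKO. Chow or AMLN, a diet used to produce fatty liver disease, was fed for 17 to 18.5 weeks, and livers were taken after a fast of 4 to 6 h. The ages of the mice are not given in the sources used here, and the labels do not say that each library came from another mouse, so p-values measure the spread between these libraries. Cre and GFP virus differ between LiFKO and Control, and line and genotype differ together in DKO, so these cannot be told apart. The DKO genotype was measured on AMLN diet alone, and mice lacking Tfe3 alone were not among the RNA-seq groups.

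Type I interferons act through the IFNAR receptor and the kinases JAK1 and TYK2 on transcription factors that include STAT2 and IRF9, which bind the interferon-stimulated response element (ISRE) in promoters. Interferon gamma acts on the gamma-activated sequence (GAS). The products include sensors of viral nucleic acids, blockers of viral translation and replication, the ubiquitin-like protein ISG15 with its enzymes, and GTPases that attack vacuoles holding microbes. Flcn encodes folliculin, which works with the Rag GTPases to let mTORC1 hold TFE3 outside the nucleus; TFE3 is a transcription factor of lysosomal genes that binds the E-box and its CLEAR form.

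Promoter stretches are shown for matches to the ISRE and the GAS, through which genes can answer interferon, and to the E-box. RefSeq promoters (250 bases before the start and 50 after, build GRCm38.p6) were matched for 37 members, with 44 promoters among 32851. The ISRE was searched as GAAA, any 2 bases and GAAA again, the GAS as TTCNNNGAA, the E-box as CACGTG and the CLEAR element as TCACGTGA, which contains the E-box, all on both strands. The ISRE letters stood in 17 of the 44 promoters (38.6%) and in 3.44% of all promoters. The GAS letters stood in 12 (27.3%) and in 8.3% of all. The E-box stood in 1 (2.27%), that of Trim25, and in 7.15% of all, and the CLEAR letters in 0 of the 44 and in 0.974% of all. These matches describe the letters and are not measured sites. The stretches end before the start, read 5′ to 3′ on the gene's strand, and carry the match in capitals.
ISRE of Isg15, chr4:156200850-156200921, minus strand: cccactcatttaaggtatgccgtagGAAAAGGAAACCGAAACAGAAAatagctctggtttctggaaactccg
ISRE of Ifit1, chr19:34640760-34640838, plus strand: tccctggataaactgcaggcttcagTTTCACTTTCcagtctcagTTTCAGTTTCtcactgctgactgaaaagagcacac
ISRE of Ifit3, chr19:34583348-34583441, plus strand: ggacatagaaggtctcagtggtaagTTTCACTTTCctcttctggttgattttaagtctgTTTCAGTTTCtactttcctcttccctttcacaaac
ISRE of Rsad2, chr12:26456538-26456597, minus strand: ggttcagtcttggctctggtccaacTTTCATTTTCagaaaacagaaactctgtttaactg
ISRE of Oas1a, chr5:120907526-120907570, minus strand: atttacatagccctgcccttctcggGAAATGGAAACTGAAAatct
GAS and ISRE of Bst2, chr8:71537562-71537633, minus strand: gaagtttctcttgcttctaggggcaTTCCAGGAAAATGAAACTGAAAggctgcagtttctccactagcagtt
GAS and ISRE of Igtp, chr11:58199486-58199555, plus strand: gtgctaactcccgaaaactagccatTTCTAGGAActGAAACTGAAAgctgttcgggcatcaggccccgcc
GAS and ISRE of Irgm2, chr11:58214877-58214947, plus strand: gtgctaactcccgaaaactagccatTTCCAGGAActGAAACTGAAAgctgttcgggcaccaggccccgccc
GAS of Irf1, chr11:53769899-53769957, plus strand: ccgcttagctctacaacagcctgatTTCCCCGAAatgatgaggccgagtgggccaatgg
E-box of Trim25, chr11:88999330-88999385, plus strand: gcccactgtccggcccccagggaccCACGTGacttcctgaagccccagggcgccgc

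Isg15 carries overlapping ISRE matches close to its start, and Ifit1 and Ifit3 carry a pair of separate ones on the other strand. The 2 neighbouring GTPase genes Igtp and Irgm2 share a stretch in which the GAS and the ISRE stand side by side, and in Bst2 the GAS match overlaps the ISRE.

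The values are log2 expression as the authors deposited them, after quantile normalization; they are not scaled per gene length, so levels are compared between groups and not between genes. Flcn, the deleted gene, had a mean of 11.44 ± 0.11 (SD, n = 3) in chow Control and 10.41 ± 0.23 in chow LiFKO, and of 10.98 ± 0.07, 10.42 ± 0.16 and 9.49 ± 0.40 in AMLN Control, LiFKO and DKO. Tfe3 measured 9.92, 10.02 and 10.07 in AMLN LiFKO and 10.20, 9.88 and 9.89 in DKO; a value per gene does not show whether the deleted part is missing, so it checks nothing. Of 20 TFE3 target genes used as a check, 16 rose in chow LiFKO, 14 rose in AMLN LiFKO, and 16 fell in DKO against LiFKO (limma, adjusted p under 0.05). Over all genes 12.5% and 10.1% rose and 5.97% fell in these comparisons. Flcn, which Cre deletes, was itself on the list of 20. Its mean was lower in chow LiFKO than in chow Control, and lower in DKO than in AMLN LiFKO. The hepatocyte markers were high in all groups, with the summed level of 7 of 8 between 20.86 and 22.01 on the log2 scale. The sum was 20.86 to 21.37 in chow LiFKO and 21.32 to 21.35 in AMLN LiFKO. Of the 7, 2 fell in chow LiFKO, where 13.2% of all genes fell. Alb made up most of this sum. Alb stood at 21.47, the highest value among all genes, in every Control and DKO library and at 20.10 to 20.65 in LiFKO. AMLN LiFKO replicate 3 stood apart for the interferon genes: it was the highest of its group for 38 of the 44, and replicates 1 and 2 for 2 and 4. AMLN Control replicate 3 was the highest for 27, AMLN DKO replicate 1 for 35 and chow LiFKO replicate 1 for 32, whereas chow Control replicate 1 was the lowest of its group for 36. In bulk liver, fewer cells of a type and less RNA per cell cannot be told apart.

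**Figure D1:**
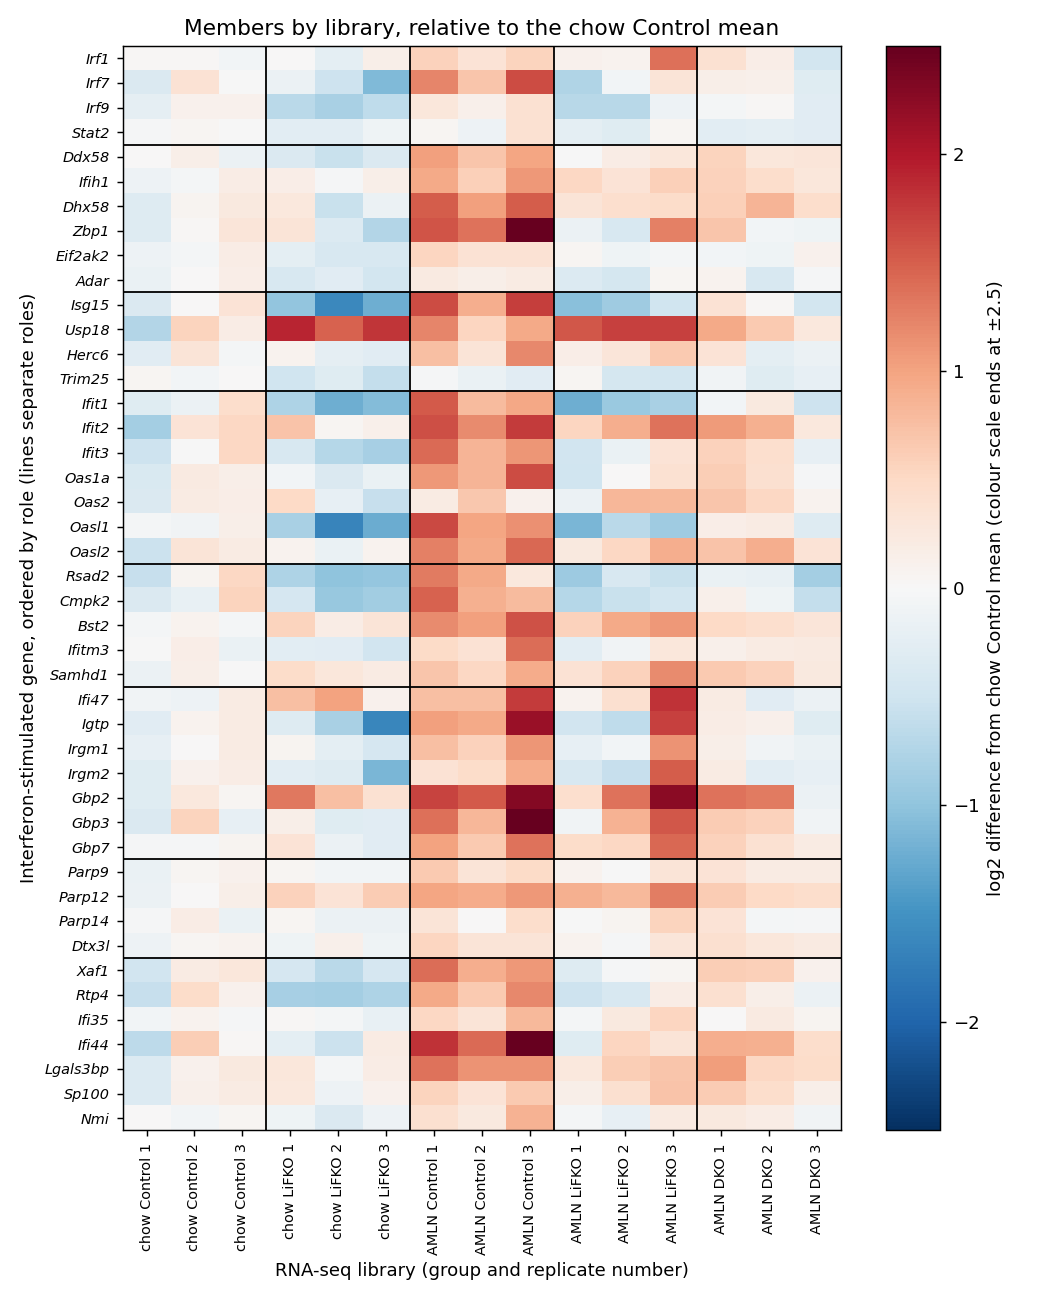
Each row is an interferon-stimulated gene and each column a library; the colour gives the log2 difference from the mean of the chow Control libraries. The AMLN Control columns are red for nearly every gene, and the AMLN LiFKO columns are paler except in replicate 3, which was the highest of its group for 38 of 44 genes.

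In Control livers, interferon-stimulated genes rose with AMLN diet in every role group. Of the 44, 33 rose and 0 fell (limma, adjusted p under 0.05), where 11.2% of all genes rose and 11.6% fell, 22.8% in all. The median change was 0.92 on the log2 scale, beside -0.04 over all genes. Ifi44, an antiviral protein, rose by 2.10 ± 0.40 (SE), Zbp1, a sensor of Z-form nucleic acid, by 1.90 ± 0.44 and Gbp2, a guanylate-binding GTPase, by 1.84 ± 0.44. The 3 AMLN Control libraries lay above all 3 chow Control libraries for 36 members, which holds for 19.1% of all genes. AMLN Control had the highest group mean of the 5 groups for 40 of the 44. The members that did not pass were Irf1, Irf9, Stat2, Adar, Trim25, Oas2, Ifi47, Igtp, Irgm2, Parp14 and Sp100. Without chow Control replicate 1, the lowest library of its group, 19 rose.

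LiFKO livers on AMLN diet had lower levels of 22 members than Control livers on that diet, and none rose (limma). Over all genes 9.63% fell and 10.1% rose, 19.7% in all. Of the members 1, Usp18, had an unadjusted p under 0.05 in the other direction. The median change was -0.52, beside -0.02 over all genes. All 6 nucleic acid sensors and editors fell, as did 4 of 7 IFIT and OAS genes, 3 of 5 other antiviral effectors and 5 of 7 other induced genes. Of the 7 GTPases of the interferon-gamma response 0 fell, and 1 had an unadjusted p under 0.05. Isg15 fell by 2.24 ± 0.28, to 0.212 of the Control level. Oasl1 fell by 2.16 ± 0.23, and Ifit1 fell by 2.08 ± 0.25. Groups did not overlap, with LiFKO lower, for 23 members, beside 18.3% of all genes. Without the AMLN libraries numbered 3 of both groups, a choice made after seeing them stand high, 24 members fell and 0 rose. Re-centring each library on 8 reference genes moved all genes up by 0.234 in this comparison, and 15 members then fell and 1 rose.

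On chow, Flcn loss went with falls of 10 members and rises of 2 (limma), where 13.2% of all genes fell and 12.5% rose, 25.7% in all. The median was -0.19, beside -0.05 over all genes. Isg15 fell by 1.27 ± 0.28, Oasl1 by 1.23 ± 0.23, Ifit1 by 1.02 ± 0.25, and Rsad2, Rtp4, Cmpk2, Irf9, Trim25, Ddx58 and Eif2ak2 by 0.92 to 0.35. Usp18, the protease that removes ISG15 from proteins, rose by 1.72 ± 0.27, to 3.29 times the Control level, and Parp12, an ADP-ribosyltransferase, by 0.52 ± 0.12. Groups did not overlap for 15 members with LiFKO lower and for 5 with LiFKO higher, beside 23.3% and 18.5% of all genes. With the replicate number as a block 3 rose and 10 fell: Adar, Ifitm3 (both lower) and Bst2 (higher) also passed, with adjusted p of 0.0368, 0.0129 and 0.0381, and Cmpk2 and Eif2ak2 did not, at 0.0794 and 0.0666. The number of falls was 6 without chow Control replicate 2, 6 without chow Control replicate 3, 5 without chow LiFKO replicate 2 and 6 without chow LiFKO replicate 3.

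**Figure D2:**
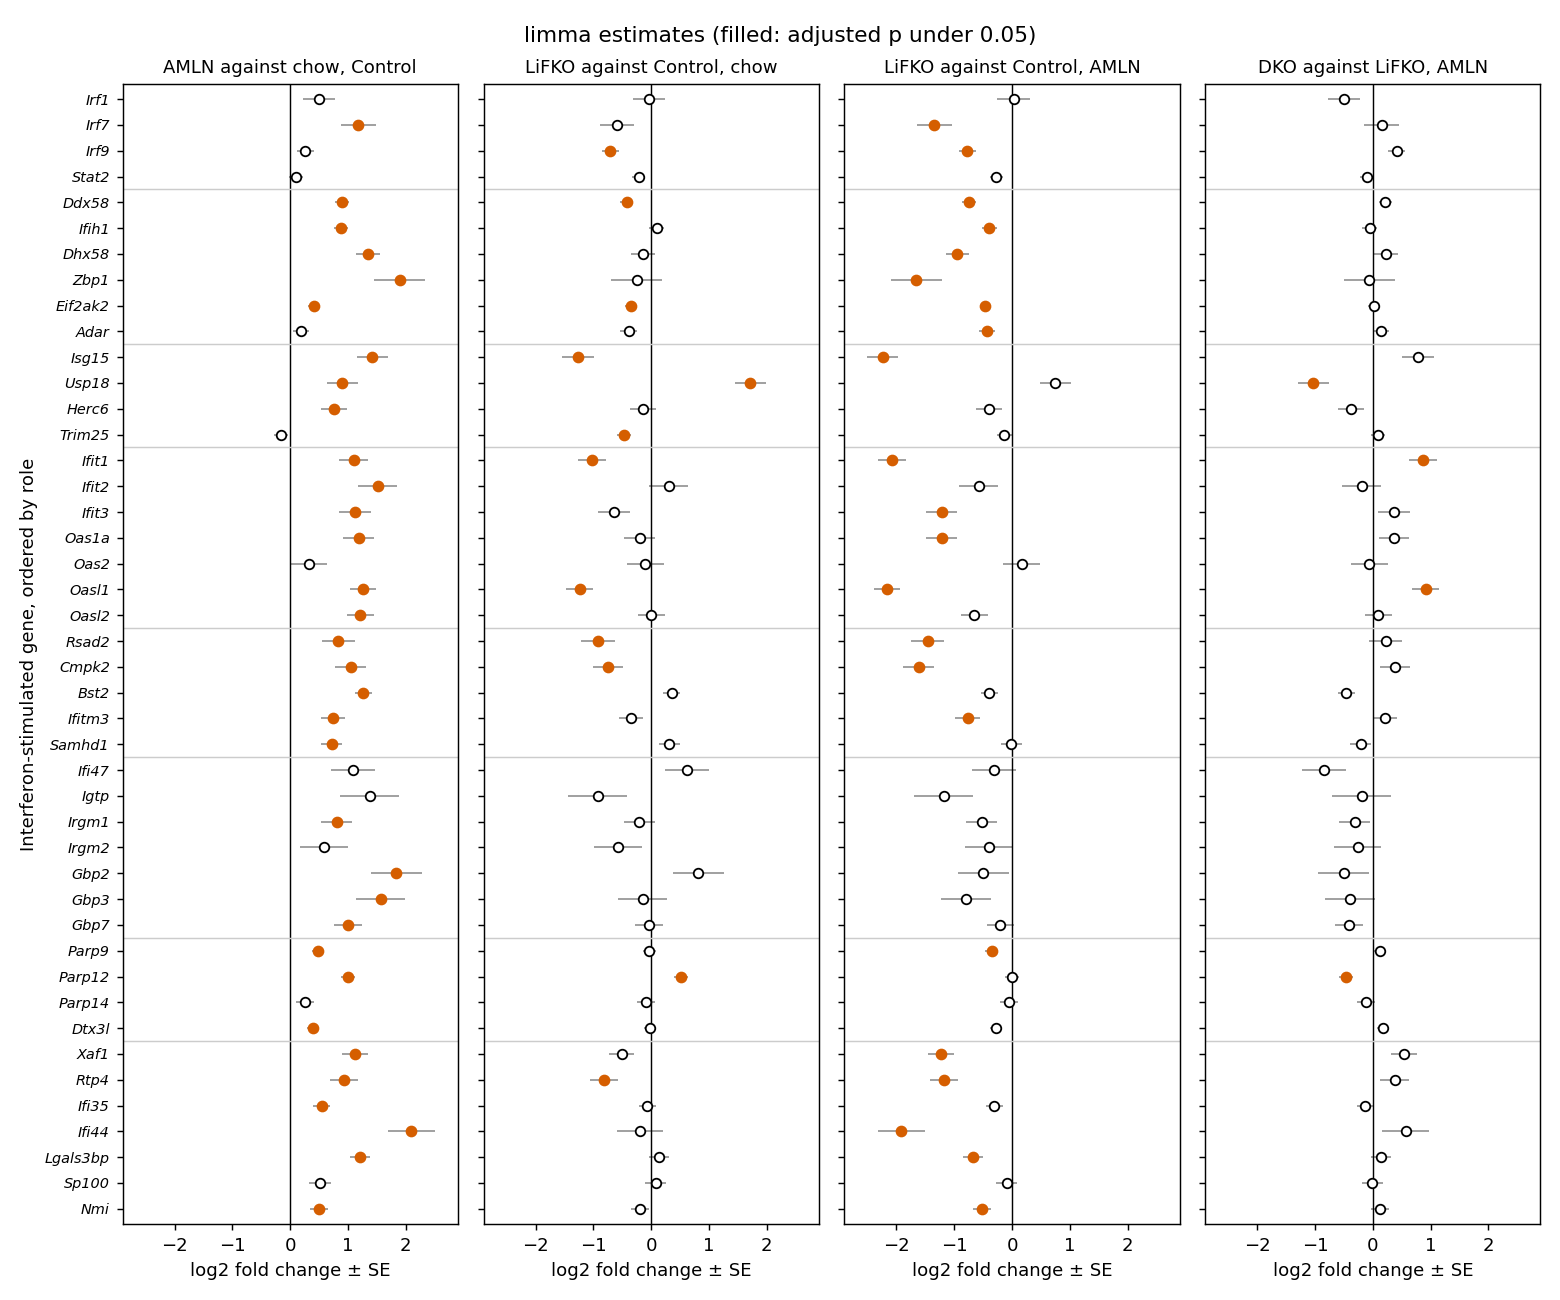
Points are limma log2 fold changes with bars of 1 SE for each gene, in 4 comparisons; filled points passed an adjusted p under 0.05. The diet panel has 33 filled points, all right of 0, the AMLN LiFKO panel 22, all left of 0, and the chow LiFKO panel 10 left and 2 right.

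The difference between the LiFKO effects on the diets was tested directly. No member passed (limma; 0 of 44, beside 1.04% of all genes), and 14 had an unadjusted p under 0.05, all with the lower value on AMLN diet. Bst2 came nearest, with a difference of -0.75 ± 0.21 (adjusted p = 0.0976). The median difference of the members was -0.46, beside 0.03 over all genes, and 39 of the 44 lay below 0. With no member past the threshold, the larger count of falls on AMLN diet is not shown to be a different effect. In LiFKO livers AMLN diet raised 2 members, Ddx58 by 0.58 ± 0.12 and Parp12 by 0.48 ± 0.12, where 1.58% of all genes rose and 3.74% passed in either direction; 12 members had an unadjusted p under 0.05. The 2 rises became 0 without AMLN LiFKO replicate 3 or without chow LiFKO replicate 2, and 1 without chow LiFKO replicate 1 or without AMLN LiFKO replicate 2. Groups did not overlap for 12 members, all higher on AMLN diet, beside 12.2% of all genes higher and 12.7% lower. The median change with diet was 0.39 in LiFKO livers. This comparison and that in Control livers have no library in common, but share the fitted spread. The difference between the 2 diet effects is the same as the difference tested above, in which 0 of 44 members passed.

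DKO livers, which lack Tfe3 besides hepatocyte Flcn, differed from LiFKO livers in 4 members on AMLN diet (limma). Ifit1 rose by 0.87 ± 0.25 and Oasl1 by 0.91 ± 0.23, while Usp18 fell by 1.03 ± 0.27 and Parp12 by 0.47 ± 0.12. Over all genes 5.05% rose and 5.97% fell, 11% in all, and the median of the members was 0.05, beside 0.02. Groups did not overlap for 4 members with DKO higher and 3 with DKO lower, beside 15.3% and 13.5% of all genes. With re-centring on reference genes, which moved all genes by -0.157, 1 rose and 3 fell. Each of the 4 calls was lost on leaving out some library: the rises fell to 0 without AMLN LiFKO replicate 1, without AMLN DKO replicate 1 or without AMLN DKO replicate 2, and the falls to 0 without AMLN LiFKO replicate 3, AMLN DKO replicate 2 or AMLN DKO replicate 3. With LiFKO replicate 2 left out 1 rose and 1 fell, and without LiFKO replicate 3 1 rose.

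Against AMLN Control, DKO livers had 5 members lower and 0 higher, where 0.203% of all genes fell and 0.449% rose, 0.651% in all (limma). These were Isg15, by 1.45 ± 0.28, Oasl1, by 1.25 ± 0.23, Cmpk2, by 1.23 ± 0.26, Ifit1, by 1.21 ± 0.25, and Bst2, by 0.86 ± 0.15. Adjusted p-values ran from 0.0191 for Bst2 to 0.0483 for Cmpk2. The median of the members was -0.64, beside 0.01 over all genes, and 34 had an unadjusted p under 0.05 with the DKO mean lower. All 3 DKO libraries lay below all 3 Control libraries for 34 members, which holds for 8.09% of all genes. The 5 falls became 0 without AMLN Control replicate 1, AMLN DKO replicate 2 or AMLN DKO replicate 3. This comparison shares the DKO libraries with the one before and the Control libraries with that of LiFKO, so the 3 do not stand for separate evidence. The DKO mean lay below the Control mean for 43 of the 44 and below the LiFKO mean for 21.

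The values by library follow in the order of the genes' roles. Among the transcription factors, Irf9, a DNA-binding partner of STAT2, measured 10.76, 11.10 and 11.09 in chow Control and 10.30, 10.17 and 10.35 in chow LiFKO. Irf9 on AMLN diet measured 11.26, 11.11 and 11.37 in Control, 10.29, 10.28 and 10.85 in LiFKO and 10.94, 11.01 and 10.71 in DKO. Each LiFKO library lay below each Control library on both diets, and Irf9 fell by 0.71 ± 0.15 on chow and by 0.77 ± 0.15 on AMLN diet (limma, adjusted p = 0.00274 and 0.00191). Irf7, which amplifies the type I response, measured 10.20, 10.91 and 10.55 in chow Control and 10.41, 10.04 and 9.45 in chow LiFKO, which overlap. Irf7 on AMLN diet measured 11.78, 11.24 and 12.18 in Control, 9.81, 10.49 and 10.87 in LiFKO and 10.70, 10.68 and 10.24 in DKO. It fell by 1.34 ± 0.30 in AMLN LiFKO (adjusted p = 0.00568) and rose by 1.18 ± 0.30 with diet in Control livers. Irf1, an early target of interferon gamma, and Stat2 passed in none of the 7 comparisons; Irf1 stood at 10.31 and 10.29 in AMLN LiFKO replicates 1 and 2 and at 11.57 in replicate 3.

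Of the sensors, Ddx58 encodes RIG-I, which detects viral RNA. Ddx58 measured 10.40, 10.52 and 10.24 in chow Control and 10.03, 9.83 and 10.02 in chow LiFKO. On AMLN diet Ddx58 measured 11.40, 11.08 and 11.37 in Control, 10.38, 10.58 and 10.67 in LiFKO and 10.94, 10.66 and 10.69 in DKO. LiFKO lay below Control without overlap on either diet, with falls of 0.42 ± 0.12 and 0.74 ± 0.12 (limma, adjusted p = 0.0176 and 0.000616). In AMLN LiFKO the related sensors Dhx58 and Ifih1 fell by 0.94 ± 0.21 and 0.39 ± 0.13. Zbp1 fell by 1.66 ± 0.44; its values there were 7.77, 7.51 and 9.18, so replicate 3 stood apart. Eif2ak2 encodes PKR, the kinase that halts translation, and fell by 0.46 ± 0.10, and Adar, which edits double-stranded RNA, by 0.43 ± 0.14. With diet in Control livers 5 of these 6 rose, Adar being the other at 0.19 ± 0.14.

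The ISG15 system split. Isg15 encodes the ubiquitin-like protein itself, and measured 7.99, 8.36 and 8.70 in chow Control and 7.37, 6.74 and 7.13 in chow LiFKO. Isg15 on AMLN diet measured 9.98, 9.25 and 10.08 in Control, 7.29, 7.46 and 7.84 in LiFKO and 8.70, 8.37 and 7.88 in DKO. In AMLN livers the 3 groups did not overlap, in the order LiFKO, DKO, Control; the step from LiFKO to DKO, 0.79 ± 0.28, did not pass (limma, adjusted p = 0.0849). Usp18, which removes ISG15 and also holds back the interferon receptor, measured 8.60, 9.89 and 9.53 in chow Control and 11.23, 10.81 and 11.13 in chow LiFKO. Usp18 on AMLN diet measured 10.57, 9.88 and 10.28 in Control, 10.88, 11.05 and 11.05 in LiFKO and 10.29, 10 and 9.60 in DKO. Its LiFKO libraries were above Control on both diets without overlap, by 1.72 ± 0.27 on chow (adjusted p = 0.000329) and by 0.75 ± 0.27 on AMLN diet, which did not pass (adjusted p = 0.0672). The DKO values lay below all LiFKO values, by 1.03 ± 0.27 (adjusted p = 0.0245), and overlapped those of Control. Herc6, the mouse ligase that attaches ISG15, rose with diet in Control livers by 0.76 ± 0.22 and passed in no other comparison. Trim25, a ubiquitin ligase that activates RIG-I, fell by 0.47 ± 0.12 in chow LiFKO and passed in no other.

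**Figure D3:**
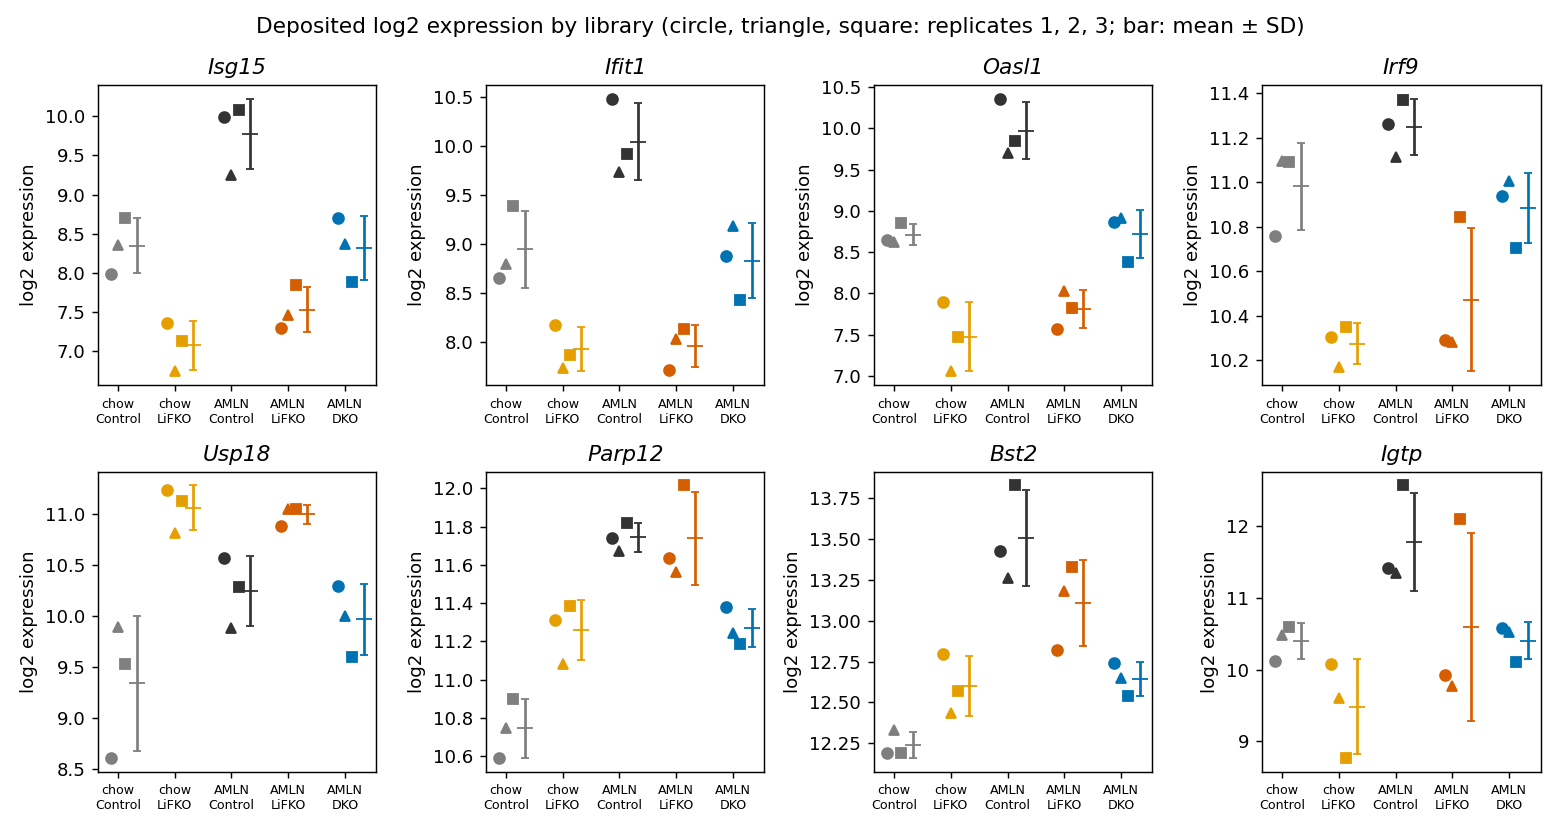
The y axis is the deposited log2 expression of 8 genes, with a symbol for each of the 3 libraries of a group and a bar for the mean ± SD. Isg15, Ifit1 and Oasl1 are lowest in the LiFKO groups, Usp18 is highest there, and Igtp has 1 high AMLN LiFKO library at 12.11.

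The IFIT proteins bind viral RNA and block its translation, and the OAS proteins make the signal that activates RNase L. Ifit1 measured 8.65, 8.80 and 9.39 in chow Control and 8.17, 7.74 and 7.87 in chow LiFKO. Ifit1 on AMLN diet measured 10.48, 9.73 and 9.92 in Control, 7.72, 8.03 and 8.14 in LiFKO and 8.88, 9.19 and 8.43 in DKO. The 3 AMLN groups did not overlap, and all steps between them passed (limma, adjusted p = 4.85e-05, 0.0355 and 0.0421 for LiFKO against Control, DKO against LiFKO and DKO against Control). Oasl1, a member of the family without the enzyme activity, measured 8.65, 8.62 and 8.85 in chow Control and 7.90, 7.06 and 7.47 in chow LiFKO. Oasl1 on AMLN diet measured 10.36, 9.70 and 9.85 in Control, 7.57, 8.03 and 7.82 in LiFKO and 8.87, 8.91 and 8.38 in DKO. It showed the same order without overlap (adjusted p = 1.9e-05, 0.0197 and 0.0262). Ifit3 and Oas1a each fell by 1.22 ± 0.27 in AMLN LiFKO. Ifit2 and Oasl2 rose with diet, by 1.51 ± 0.34 and 1.21 ± 0.24, and did not pass in AMLN LiFKO at -0.58 ± 0.34 and -0.65 ± 0.24. Oas2 passed in no comparison. Near-identical copies exist in the Ifit, Oas, Gbp and Irgm families, so reads may have been split between relatives, and these values are uncertain to that extent.

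Rsad2 encodes viperin, which makes a chain-terminating nucleotide, and its neighbour Cmpk2 a kinase that supplies nucleotides. Rsad2 measured 8.78, 9.41 and 9.87 in chow Control and 8.57, 8.34 and 8.39 in chow LiFKO. Rsad2 on AMLN diet measured 10.65, 10.30 and 9.61 in Control, 8.44, 8.95 and 8.80 in LiFKO and 9.18, 9.17 and 8.51 in DKO. It fell by 0.92 ± 0.29 and 1.46 ± 0.29 in LiFKO on chow and AMLN diet (limma, adjusted p = 0.0294 and 0.00241), without overlap on either. Cmpk2 measured 8.16, 8.34 and 9.08 in chow Control and 8.11, 7.57 and 7.67 in chow LiFKO, which came close to overlapping. Cmpk2 on AMLN diet measured 9.996, 9.41 and 9.31 in Control, 7.82, 7.97 and 8.08 in LiFKO and 8.66, 8.43 and 7.93 in DKO. It fell by 0.74 ± 0.26 on chow and fell by 1.62 ± 0.26 on AMLN diet (adjusted p = 0.049 and 0.000577). Bst2, tetherin, which holds budding virus at the membrane, measured 12.19, 12.33 and 12.19 in chow Control and 12.79, 12.43 and 12.57 in chow LiFKO. Bst2 on AMLN diet measured 13.43, 13.26 and 13.83 in Control, 12.82, 13.18 and 13.33 in LiFKO and 12.74, 12.65 and 12.54 in DKO. Here LiFKO lay above Control on chow and overlapped it on AMLN diet, and neither difference passed (adjusted p = 0.0903 and 0.0782). Ifitm3, which blocks viral entry, fell by 0.77 ± 0.21 in AMLN LiFKO, and Samhd1, which depletes nucleotides, rose with diet in Control livers by 0.72 ± 0.18.

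Among the GTPases, Gbp2 measured 7.68, 8.24 and 8.02 in chow Control and 9.30, 8.73 and 8.37 in chow LiFKO. Gbp2 on AMLN diet measured 9.66, 9.51 and 10.28 in Control, 8.40, 9.33 and 10.23 in LiFKO and 9.33, 9.27 and 7.84 in DKO. LiFKO replicate 3 reached the Control range and the others did not. Igtp, an immunity-related GTPase, measured 10.12, 10.49 and 10.60 in chow Control and 10.08, 9.60 and 8.77 in chow LiFKO. Igtp on AMLN diet measured 11.42, 11.35 and 12.57 in Control, 9.92, 9.77 and 12.11 in LiFKO and 10.59, 10.53 and 10.11 in DKO. The same 2 LiFKO libraries were below every Control library and the third was not, which gave a difference of -1.18 ± 0.51 that did not pass (limma, adjusted p = 0.124). Gbp7 measured 9.96, 9.98 and 10.06 in chow Control and 10.33, 9.85 and 9.71 in chow LiFKO. Gbp7 on AMLN diet measured 10.99, 10.65 and 11.36 in Control, 10.46, 10.52 and 11.43 in LiFKO and 10.57, 10.38 and 10.20 in DKO. All 7 GTPases were highest in replicate 3 of both AMLN Control and AMLN LiFKO, and in replicate 1 of DKO. With diet in Control livers, 4 of the 7 rose: Gbp2, Gbp3, Gbp7 and Irgm1. Against AMLN Control, the DKO libraries lay below without overlap for all 7, beside 8.09% of all genes, with differences from -1.37 to -0.62, and none passed.

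Of the PARP family, whose members attach ADP-ribose, Parp12 measured 10.59, 10.75 and 10.90 in chow Control and 11.31, 11.08 and 11.38 in chow LiFKO. Parp12 on AMLN diet measured 11.74, 11.67 and 11.82 in Control, 11.63, 11.56 and 12.02 in LiFKO and 11.38, 11.24 and 11.19 in DKO. It rose in chow LiFKO without overlap (limma, adjusted p = 0.00621), differed by -0.01 ± 0.12 in AMLN LiFKO, and rose by 1.00 ± 0.12 with diet in Control livers. DKO lay below every AMLN LiFKO library (adjusted p = 0.0232). Parp9 measured 11.41, 11.63 and 11.67 in chow Control and 11.62, 11.51 and 11.50 in chow LiFKO. Parp9 on AMLN diet measured 12.23, 11.88 and 12.05 in Control, 11.65, 11.55 and 11.89 in LiFKO and 11.91, 11.77 and 11.78 in DKO. It fell by 0.35 ± 0.11 in AMLN LiFKO (adjusted p = 0.0319), though 1 library of each group overlapped. Parp9 and Dtx3l, its partner ligase, lie with overlapping spans, as do Irf7 with Phrf1 and Irf9 with Rnf31, so reads there may count for either gene.

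Of the other induced genes, Xaf1, a gene linked to cell death, measured 7.38, 8.06 and 8.15 in chow Control and 7.43, 7.19 and 7.44 in chow LiFKO. Xaf1 on AMLN diet measured 9.26, 8.77 and 8.94 in Control, 7.54, 7.83 and 7.91 in LiFKO and 8.48, 8.45 and 7.98 in DKO. It fell by 1.23 ± 0.22 in AMLN LiFKO (limma, adjusted p = 0.00133). Rtp4 measured 8.80, 9.82 and 9.48 in chow Control and 8.52, 8.51 and 8.59 in chow LiFKO. Rtp4 on AMLN diet measured 10.31, 10.01 and 10.57 in Control, 8.85, 8.97 and 9.55 in LiFKO and 9.77, 9.50 and 9.22 in DKO. LiFKO lay below Control on both diets, by 0.82 ± 0.24 and 1.17 ± 0.24. Lgals3bp, a secreted galectin ligand, measured 11.46, 11.91 and 12.04 in chow Control and 12.08, 11.75 and 11.98 in chow LiFKO. Lgals3bp on AMLN diet measured 13.16, 12.93 and 12.93 in Control, 12.07, 12.42 and 12.50 in LiFKO and 12.86, 12.31 and 12.26 in DKO. It rose with diet in Control livers, to 2.30 times the chow level, and fell by 0.68 ± 0.18 in AMLN LiFKO. Ifi44 fell by 1.92 ± 0.40 and Nmi by 0.51 ± 0.16 in AMLN LiFKO; Ifi35 rose with diet by 0.55 ± 0.15, and Sp100 passed in no comparison.

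Counts by promoter letters are given without a test of the difference. Over all genes 9.63% fell in AMLN LiFKO, with a median change of -0.02. With diet in Control livers 11.2% of all genes rose. Of 17 members with the ISRE letters, 9 fell in AMLN LiFKO and the median change was -0.74; of 20 with a promoter but no match, 9 fell and the median was -0.47. With diet in Control livers 14 of the 17 and 14 of the 20 rose. Of 12 members with the GAS letters 4 fell in AMLN LiFKO, with a median of -0.42, and of 25 without them 14 fell, with a median of -0.68. With diet in Control livers 8 of the 12 and 20 of the 25 rose.

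Other genes of the pathway had a median change of -0.03 with diet in Control livers, -0.02 in AMLN LiFKO and 0.01 in chow LiFKO. The medians over all genes were -0.04, -0.02 and -0.05. Of 36 listed, 26 were measured; the 7 interferon genes themselves were not, so no ligand level is given, and Socs1 and the cGAS gene Mb21d1 were not analysed here. With AMLN diet in Control livers 5 rose and 3 fell (limma), where 11.2% of all genes rose and 11.6% fell. Among those that rose, Tlr3, a sensor of double-stranded RNA, rose by 0.84 ± 0.20, Tmem173, which encodes STING, by 0.82 ± 0.26, Ikbke by 0.75 ± 0.17 and Ptpn6 by 0.47 ± 0.13, while Irf5, Ptpn2 and Ifnar2 fell. In AMLN LiFKO 1 rose, Mavs, the adaptor of RIG-I, by 0.56 ± 0.13, and 0 fell, where 10.1% of all genes rose and 9.63% fell. On chow LiFKO 1 rose and 3 fell, where 12.5% of all genes rose and 13.2% fell. Ikbke, a kinase that activates IRF3, rose by 0.98 ± 0.17. Irf5 fell from a mean of 9.81 in chow Control to 8.32 in chow LiFKO (limma, adjusted p = 0.000836). That fall was larger than the fall of any of the 44 members on chow. Ifnar2, a chain of the type I receptor, fell by 0.46 ± 0.08 and Pias1 by 0.39 ± 0.10. Ikbke and Irf2 fell in DKO against LiFKO, Ikbke by 0.86 ± 0.17 and Irf2 by 0.47 ± 0.13, where 5.97% of all genes fell.

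Markers of other cells moved with some of these comparisons. Of 18 macrophage and Kupffer cell markers 16 were measured. With diet in Control livers 5 rose (Cd5l, Cd68, Itgax, Ccr2 and Trem2) and 0 fell; their summed level on the log2 scale was 14.53 to 15.51 in chow Control and 15.32 to 15.53 in AMLN Control. In AMLN LiFKO, where the interferon genes fell, 2 rose (Vsig4 and Cd68), 0 fell, and the sum was 15.25 to 16.03. Of the 16, 12 changes lay above 0 and 4 below. Groups did not overlap for 2 with LiFKO higher and for 2 with LiFKO lower, Ccr2 and Trem2, beside 17.2% and 18.3% of all genes. Ccr2 measured 8.41, 8.11 and 7.65 in AMLN Control and 7.39, 7.05 and 7.15 in AMLN LiFKO. Trem2 measured 7.92, 8.07 and 6.55 in AMLN Control and 5.92, 5.53 and 6.22 in AMLN LiFKO. In chow LiFKO 1 rose, Cd68, which is also a lysosomal protein, and the sum was 14.69 to 15.13. In DKO against LiFKO 2 fell and the DKO sum was 14.82 to 15.62. Lymphocyte markers were measured for 1 of 16, Cd4, neutrophil markers for 3 of 8, and plasmacytoid dendritic cell markers for 2 of 6, Ly6d and Tcf4, with Siglech not analysed here. Ly6d rose by 5.63 ± 0.65 with diet in Control livers and by 4.40 ± 0.65 in chow LiFKO. Tcf4 changed by 0.26 and -0.07 in these comparisons and passed in neither, and it fell by 0.37 ± 0.11 in AMLN LiFKO. Of 6 stellate markers 4 rose with diet in Control livers and 1 fell in AMLN LiFKO. Of 11 endothelial markers 2 rose in chow LiFKO, 1 in AMLN LiFKO and 1 with diet in Control livers. Over all genes 11.2% rose with diet in Control livers, 12.5% in chow LiFKO and 10.1% in AMLN LiFKO. In AMLN LiFKO 9.63% of all genes fell, and in DKO against LiFKO 5.97%. The part of these cells in the results on interferon genes was not tested.

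TFE3 ChIP-seq, which maps where TFE3 sits on DNA, was read as peak lists pooled over libraries: 2 on chow, with 4 libraries each by the labels, and 4 after 9 days of a diet named FPC, with 3 each. These mice ate freely, whereas the RNA-seq mice were fasted. The FPC lists were of Control and LiFKO mice, each with and without a virus for the HA-tagged nuclear form of SREBP-1c (1c). Per the labels, the GFP or Cre virus was given at 2.5e11 genome copies without 1c and at 1.5e11 together with 1.0e11 of the 1c virus, so its dose and 1c cannot be told apart. On chow, as in the RNA-seq mice, it was 1.5e11. Per the file headers, each TFE3 list merges peaks called over input with peaks called over liver without Tfe3. The headers of the FPC Control, Control+1c and LiFKO pools also name an input library among the ChIP libraries and a TFE3 library as background, which goes against their labels; the chow and FPC LiFKO+1c lists do not. A gene was counted with a peak when the peak's centre lay within 5 kb of its start, in mm9, for 37 members and 9914 genes whose strand was known. On chow 7 members had a peak in Control (18.9%, beside 33.2% of all genes) and 23 in LiFKO (62.2%, beside 62.9%). Counting only peaks with a score above the list's median, the chow shares were 8.11% (beside 24.8% of all genes) in Control and 29.7% (beside 46.9%) in LiFKO. After FPC diet the numbers were 5 in Control (13.5%, beside 24.5%), 11 in Control+1c (29.7%, beside 24.5%), 16 in LiFKO (43.2%, beside 56.2%) and 22 in LiFKO+1c (59.5%, beside 68.3%). The TFE3 target check list had a peak in 16 or 17 of 17 in every list. The members' shares were thus near or below those of all genes, except in Control+1c, and were larger in the LiFKO lists, as were those of all genes. Peaks of each pool were called once, so no replicate spread can be given.

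**Figure D4:**
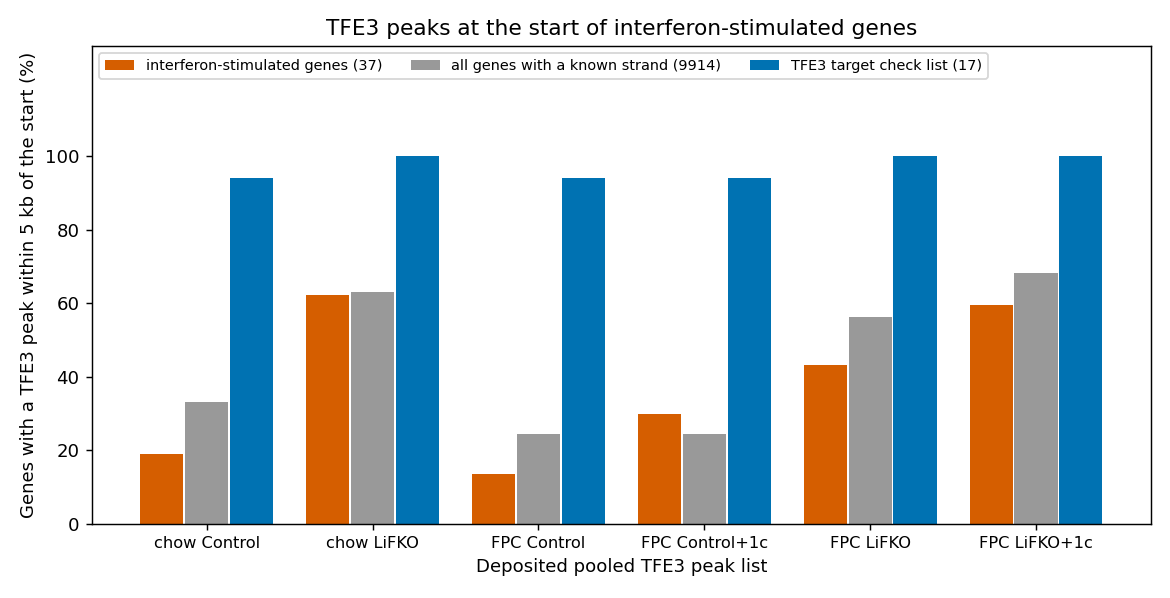
Bars give the percentage of genes with a TFE3 peak within 5 kb of the start in each of 6 pooled lists, for interferon-stimulated genes, all genes and the TFE3 target check list. The members stand at 62.2% in chow LiFKO, beside 62.9% of all genes, while the check list is at 94.1% or 100% throughout.

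On chow, 23 members had a TFE3 peak in LiFKO liver and 14 did not. Of these, 5 of the 23 and 4 of the 14 fell in chow LiFKO, and the median change was -0.20 in both. Over all genes 13.2% fell there, with a median of -0.05. Rsad2 and Stat2 had a peak in all 6 lists. The Rsad2 peak was centred 92 to 139 bases before the start (chow LiFKO, chr12:27141342-27141528 in mm9) and that of Stat2 183 to 292 bases before it. Bst2 had a peak 94 to 188 bases before its start in 5 lists, all but Control+1c. Isg15 had none in either Control list without 1c; its peaks lay 2257 to 2271 bases before the start in Control+1c, LiFKO and LiFKO+1c of FPC diet and 2978 bases after it, past the gene's end, in chow LiFKO. Oasl1 had a peak within 5 kb in FPC LiFKO+1c alone, and Ifit1 in FPC Control+1c alone, close before its start.

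The members that rose in chow LiFKO were Parp12 and Usp18; Irf9, Isg15, Ddx58, Trim25 and Rsad2, which fell, also had a peak in the chow LiFKO list, as did 62.9% of all genes. Parp12 had a peak 225 bases after its start in chow LiFKO (chr6:39068030-39068216), 168 bases after it in FPC LiFKO+1c, and none within 5 kb in the lists of Control mice. The strand of Usp18 was not matched, so its peaks are given from the ends of its span (chr6:121195924-121220934). A peak 1216 to 1287 bases inside the lower end was listed in chow LiFKO (chr6:121197047-121197233), FPC LiFKO and FPC LiFKO+1c and in no Control list, and a peak 504 to 558 bases inside the upper end in all 6 lists. The authors' peak score of the lower one in chow LiFKO was at percentile 65.3 of its list. Peaks in LiFKO lists alone were not particular to the members that rose: Ifitm3 had them in the same lists as Parp12. The chow LiFKO list held 26445 peaks and the chow Control list 11385, and 62.9% and 33.2% of all genes had a peak in them. The share of all genes with a peak in LiFKO lists alone was not computed. Trim25, the member with the E-box in its promoter, had a peak close to the start in 4 lists, at 125 bases after it in chow LiFKO, not in the chow Control or FPC Control lists.

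**Figure D5:**
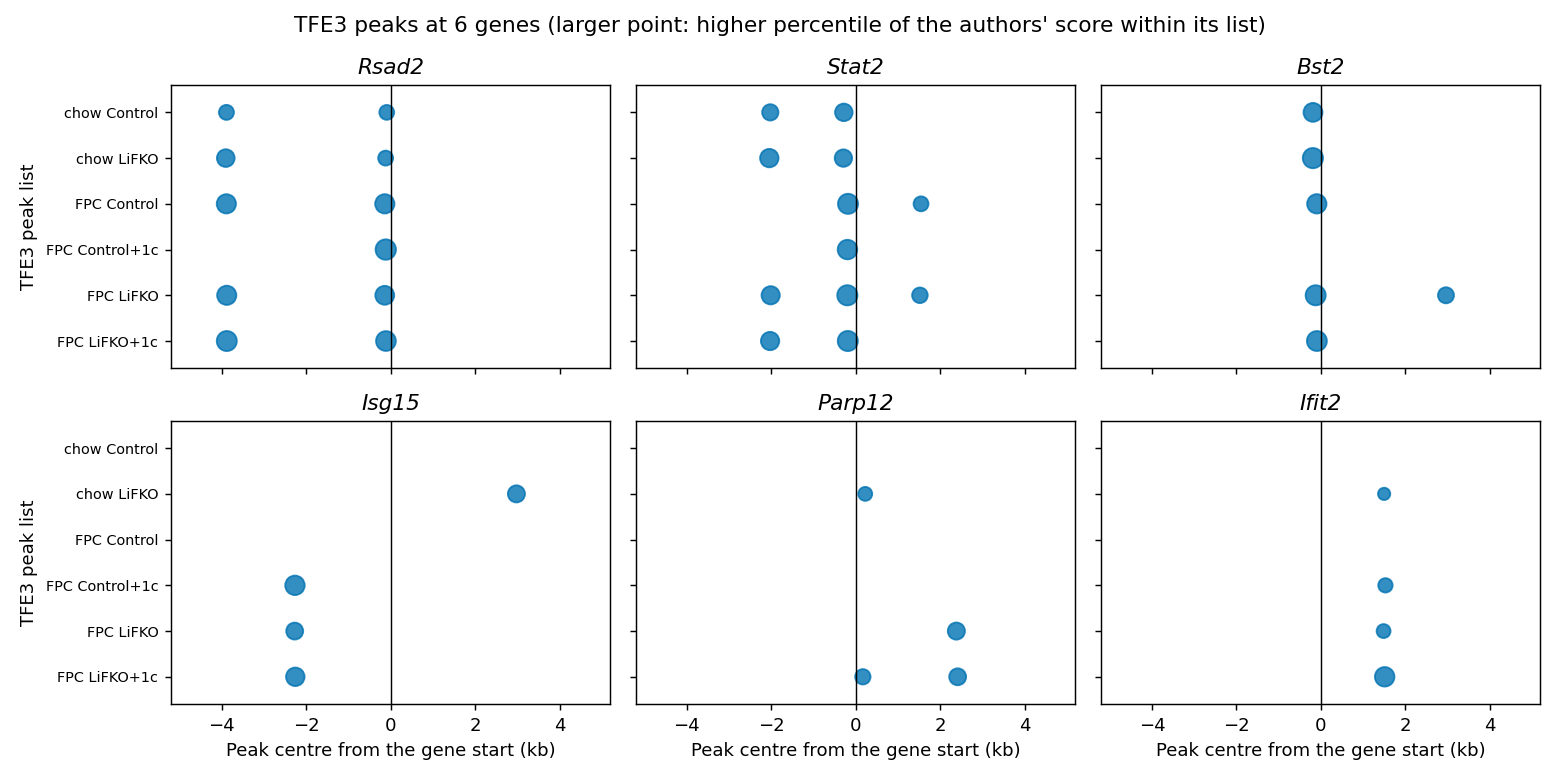
Points are TFE3 peak centres, in kb from the gene's start, in 6 lists for 6 genes; larger points have a higher percentile of the authors' score within their list. Rsad2 and Stat2 have a peak just before the start in all 6 lists, and Parp12 only in lists of LiFKO mice. Those lists also held a peak for a larger share of all genes.

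The 2 HA lists, which map the tagged SREBP-1c, held a peak near 1 member, Ifit2 (2.7% of 37, beside 3.73% of all genes in Control+1c and 2.53% in LiFKO+1c). It was centred 1390 and 1408 bases after the start, in chr19:34626486-34626662 and chr19:34626504-34626680, and TFE3 peaks lay 1485 to 1529 bases after the start in chow LiFKO, FPC Control+1c, FPC LiFKO and FPC LiFKO+1c. Per its header the HA LiFKO+1c pool names a TFE3 library among its own, and the LiFKO side of the differential table names an input library. In the authors' deposited table of TFE3 peaks that differed between LiFKO+1c and LiFKO, all 96 were higher in LiFKO+1c and 2 were assigned to members. The authors' deposited table gives the Ifit2 peak, in an intron at chr19:34626613-34626777, a log2 fold change of 1.70 (adjusted p = 0.0121). The authors' deposited table also gives a Trim25 peak in the 3′ UTR at chr11:88879241-88879405, with a log2 fold change of 2.93 (adjusted p = 0.0129).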

How the data were processed

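Liver RNA-seq of 15 libraries and pooled ChIP-seq peak lists were analysed. The authors deposited log2 expression values for 13815 genes, quantile normalized: the maximum was 21.47 and the median 9.791 to 9.799 in the libraries. Per the submitters' processing notes the RNA reads were handled with bcl2fastq 2.17, Trimmomatic 0.32, STAR 2.6.0c, SAMtools, featureCounts and limma, on mm9. Counts were not used here, so depth is unknown, and the number of libraries limits the precision. Whether counting used strand is not given in the sources used here. Peaks carry the authors' HOMER score, per the file headers, used only within a list; chow ChIP reads went through Bowtie2 2.2.8 and HOMER 4.11, and FPC reads through Bowtie2 2.2.6 and HOMER 4.4, per the submitters' processing notes. For differential peaks the authors deposited log2 fold changes with adjusted p-values; the 6 columns of tag counts beside them were not used.

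Expression was fitted with limma 3.58.1 in R 4.3.3 (group means fitted to the 15 libraries together, which left 10 residual degrees of freedom; eBayes with trend; two-sided tests), with Benjamini-Hochberg adjustment over all 13815 genes within each of 7 comparisons and a threshold of 0.05; the fit was tested on simulated data. Percentages, distances and motif counts were computed with Python 3.11.15. Same-numbered chow Control and LiFKO libraries had residual correlations of 0.113, 0.170 and 0.237, and were taken as pairs for the block reported beside that comparison; in no other comparison were all 3 above 0.1. Genes given by library are those called in a DKO comparison or in the difference between diets, and the one with the smallest p of each role group in the first 3 comparisons. The members, lists and tests were chosen with earlier results of these data known. Alternatives were other fits, scalings, filters, blocks, thresholds, left-out libraries and peak distances. The values of 1 gene of the pathway list are not reported here.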

Additional observations from a re-analysis of the deposited data

How the results depend on the processing

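Each of the 78 calls of a member in a comparison kept its direction under every alternative in which its gene was fitted. Only the left-out libraries and the re-centring on reference genes could have changed a direction. The other fits, filter, blocks and threshold leave the fold change as it was, and re-centring on the trimmed mean moved it by 0.000. Of 1234 values 972 stayed past the threshold and 262 did not. The 972 include all 78 of the trimmed mean, which hardly altered the data. The filter on mean level left out Ifi44, so its calls were not refitted there. The counts of calls kept that follow do not include the threshold of 0.01. The 14 falls in AMLN LiFKO that passed under every other alternative in which the gene was fitted were Cmpk2, Ddx58, Dhx58, Ifi44, Ifit1, Ifit3, Irf7, Irf9, Isg15, Oas1a, Oasl1, Rsad2, Rtp4 and Xaf1. On chow 6 calls did (Ifit1, Irf9, Isg15, Oasl1, Parp12 and Usp18), for diet in Control 15, and in the comparisons of DKO and of diet in LiFKO 0. Fitting the compared groups only gave 4 rises in chow LiFKO, 1 in AMLN LiFKO, 0 with diet in LiFKO, 1 rise and 1 fall in DKO against LiFKO, and 0 falls in DKO against Control. At an adjusted p under 0.01, chow LiFKO had 4 falls, diet in Control 18 rises, and diet in LiFKO and both DKO comparisons 0 calls. With the replicate block within the compared groups, AMLN LiFKO had 1 rise, diet in Control 20 rises and diet in LiFKO 0; DKO had 0 rises and 1 fall against LiFKO and 2 falls against Control. With the replicate block over all libraries, DKO had 1 rise against LiFKO and 3 falls against Control. By the labels, same-numbered libraries share only a number in every group. The chow pairs rest on residual correlations in these same data. Re-centring on reference genes gave 1 rise in AMLN LiFKO, 4 with diet in LiFKO and 1 in DKO against LiFKO. It moved the median of all genes by 0.234 in AMLN LiFKO, 0.174 in the difference between diets, -0.157 in DKO against LiFKO and -0.104 with diet in Control. Without a trend in the variance, diet in LiFKO had 1 rise, DKO against LiFKO 1 rise and DKO against Control 0 falls. Without the AMLN libraries numbered 3 of Control and LiFKO, chosen after seeing the data, these were 0, 1 and 3, with 0 falls in DKO against LiFKO. The cause of these changes was not tested.

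Leaving out 1 library at a time gave 5 to 13 falls in chow LiFKO, 15 to 29 in AMLN LiFKO, 19 to 31 rises with diet in Control and 0 to 2 in LiFKO, 0 to 2 rises and 0 to 2 falls in DKO against LiFKO, and 0 to 7 falls in DKO against Control. For the alternative fits, here and in the passages above, the share of all genes called is not given. A change in the members' counts therefore cannot be told apart from a change over all genes. Members with a TFE3 peak within 20 kb numbered 16 in chow Control (43.2%, beside 49% of all genes), 11 in FPC Control (29.7%, beside 41.2%), 18 in FPC Control+1c (48.6%, beside 43.6%) and 25 in FPC LiFKO (67.6%, beside 74.4%). Counted over the gene span with 5 kb on each side, an alternative chosen after seeing the data, these were 12 (27.3%, beside 42.7%), 12 (27.3%, beside 36.5%), 20 (45.5%, beside 37.7%) and 25 (56.8%, beside 66.2%). With a score above the list's median, 3 members had a peak in chow Control (8.11%, beside 24.8%) and 11 in chow LiFKO (29.7%, beside 46.9%). The authors' nearest-gene assignment was not run for the pooled lists. The depth is unknown, so what it limits cannot be given.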
